A study of Mus musculus with 11 samples.

Results

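Cultured fat cells that had received repeated insulin were compared with untreated cells of the same line, across 15623 genes. The comparison used 5 of the study's 11 arrays. It took in 2 arrays of 3T3-L1 adipocytes given 10 nM insulin in 4 additions, at 1200, 1600 and 2000 hr on 1 day and at 0800 hr on the following day, which the labels call CI and describe as a mimic of hyperinsulinemia, and 3 arrays of 3T3-L1 adipocytes with no treatment, called control here. 3T3-L1 is an established mouse preadipocyte line that turns into adipocytes in culture. The other 6 arrays came from the same line after 2 ng/ml TNFα for 4 days (TNF, 3 arrays) or 20 nM dexamethasone for 8 days (DEX, 3 arrays), and they served here for the estimate of the spread and to ask where CI cells differed from every other group. All groups were harvested on the same day after differentiation, and the labels do not state how long after the last insulin addition that was. The labels do not say that the arrays of a group came from separate cultures, so p-values measure the spread between these arrays, which may be technical, and 2 CI arrays limit the precision of every value.

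Members were every gene read by at least 1 probe set that carries exactly 1 gene symbol. Of 45101 probe sets, 34945 met that rule and stood for 18193 genes, and 15623 genes remained after the dimmest probe sets were left out. The brightest probe set represented each gene. Differences are given as CI minus control on the scale of log2(intensity + 16), tested with limma and adjusted over all 15623 genes, and a gene passed when the adjusted p-value was below 0.05. Adipocyte genes were bright in both groups. Adipoq, the hormone adiponectin, read 21547 ± 57.1 in CI cells and 22828 ± 510.2 in control cells, and the fatty acid carrier Fabp4 read 22179.6 ± 259 in CI cells and 22632 ± 389.7 in control cells (SD, n = 2 CI and 3 control arrays), both close to the highest intensity on any array (22501 to 25933), where a difference can be compressed.

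Insulin binds its receptor on adipocytes and acts through a pair of main branches. The PI3K-AKT-mTOR branch moves the glucose transporter GLUT4 to the surface, favours glycogen and fat storage, raises protein synthesis and keeps FOXO transcription factors out of the nucleus. The RAS-ERK branch induces early response genes together with phosphatases and inhibitors that shut the branch down again. Insulin also holds back the release of fatty acids from stored triglyceride, and long exposure is known to lower the number of its own receptors.

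The promoter of Ldha, lactate dehydrogenase A, is printed because Ldha had one of the lowest adjusted p-values among the 19 tested glycolytic genes and because its promoter holds the letters ACGTG, the core of the hypoxia response element, at 3 places. Windows around the first such letters are given for the other higher glycolytic members that hold them. All sequences are RefSeq promoters of GRCm38.p6, in the direction of the gene, with 1 start a gene. Capitals mark ACGTG or its reverse complement CACGT. Overlapping matches give the E-box CACGTG, seen at 2 places in Ldha.
Ldha (chr7:46845554-46845853, + strand): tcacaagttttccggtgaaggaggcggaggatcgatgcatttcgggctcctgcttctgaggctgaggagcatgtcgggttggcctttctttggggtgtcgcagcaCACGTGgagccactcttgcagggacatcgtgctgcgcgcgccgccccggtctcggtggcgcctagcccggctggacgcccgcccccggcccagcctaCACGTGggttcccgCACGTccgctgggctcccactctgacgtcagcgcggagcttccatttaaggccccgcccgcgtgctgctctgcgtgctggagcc
Pgk1 (chrX:106186924-106186980, + strand): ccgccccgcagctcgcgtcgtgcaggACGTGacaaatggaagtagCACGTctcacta
Hk2 (chr6:82774650-82774704, - strand): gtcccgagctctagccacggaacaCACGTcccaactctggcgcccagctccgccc
Slc2a1 (chr4:119108683-119108739, + strand): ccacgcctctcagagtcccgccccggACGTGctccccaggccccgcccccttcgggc
Pfkfb3 (chr2:11553959-11554015, - strand): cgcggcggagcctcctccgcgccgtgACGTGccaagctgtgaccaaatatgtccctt
Pgam1 (chr19:41911731-41911787, + strand): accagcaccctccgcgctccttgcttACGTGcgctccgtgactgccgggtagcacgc
On both strands, ACGTG stood in the promoters of 6 of the 13 higher glycolytic members (46.2%) and of 10 of all 18 glycolytic members with a promoter (55.6%), so the letters were not more frequent among the higher members. On the list of other hypoxia response genes they stood in 8 of the 8 higher members with a promoter, out of 9 higher members. They stood in 11 of all 19 members of that list with a promoter (57.9%), and in 23.9% of the 12481 tested genes with a promoter. Among all genes higher in CI cells the share was 29.3%, and among genes lower in CI cells 22.4%.

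Next are the windows around TTGCATCA, letters of the amino acid response element that the transcription factor ATF4 and its partners bind, in the higher members of all lists that hold it. Capitals mark TTGCATCA or its reverse complement TGATGCAA. These genes were picked by their letters after their values had been seen.
Aars (chr8:111033704-111033763, + strand): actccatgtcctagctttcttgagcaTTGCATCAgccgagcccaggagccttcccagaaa
Iars (chr13:49682111-49682170, + strand): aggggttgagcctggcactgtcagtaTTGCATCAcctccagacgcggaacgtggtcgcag
Tars (chr15:11399640-11399699, - strand): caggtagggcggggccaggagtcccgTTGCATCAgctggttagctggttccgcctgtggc
Yars (chr4:129189880-129189939, + strand): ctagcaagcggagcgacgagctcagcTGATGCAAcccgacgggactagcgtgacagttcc
Atf3 (chr1:191183410-191183469, - strand): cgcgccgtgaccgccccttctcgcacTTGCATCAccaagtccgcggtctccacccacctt
Chac1 (chr2:119351023-119351082, + strand): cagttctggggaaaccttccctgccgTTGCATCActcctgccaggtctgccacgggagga
Got1 (chr19:43524674-43524733, - strand): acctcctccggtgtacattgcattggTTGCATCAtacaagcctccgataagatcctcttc
Slc7a11 (chr3:50443646-50443705, - strand): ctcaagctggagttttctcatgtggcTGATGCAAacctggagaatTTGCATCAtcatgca
Angptl8 (chr9:21835354-21835413, + strand): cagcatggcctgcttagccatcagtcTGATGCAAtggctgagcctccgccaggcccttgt
TTGCATCA was rare, in 0.673% of the 12481 promoters. Among genes with a promoter, it stood in 4 of the 7 higher aminoacyl-tRNA synthetase genes (57.1%) and in 4 of all 12 (33.3%). On the serine, cysteine and ATF4 list it stood in 3 of the 11 higher genes with a promoter (27.3%) and 5 of all 26 (19.2%). Across all genes the share was 1.3% of those higher in CI cells and 0.626% of those lower. The matches are descriptions of the sequence and say nothing of binding in these cells.

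The expression pattern of CI cells differed from that of control cells at 2696 genes. Higher in CI were 1309 genes (8.38% of those tested), and lower were 1387 (8.88%), and the counts of list members below are to be read against these shares. The changes were small. The median absolute log2 difference of the passing genes was 0.32, 20 genes were over 2-fold higher and 8 over 2-fold lower. The plot of all genes shows passing genes at every intensity. At 2695 of the passing genes both CI arrays lay beyond all 3 control arrays, but so they did at 46% of all genes tested, so separation of the arrays alone carries little. Of the 2696 calls, 956 held when each of the 5 arrays was left out in turn (426 higher and 530 lower), and the total was 1433 without CI array 1 (558 higher and 875 lower) and 1881 without CI array 2 (1025 higher and 856 lower). Without control array 2 there were 853 higher.

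**Figure D1:**
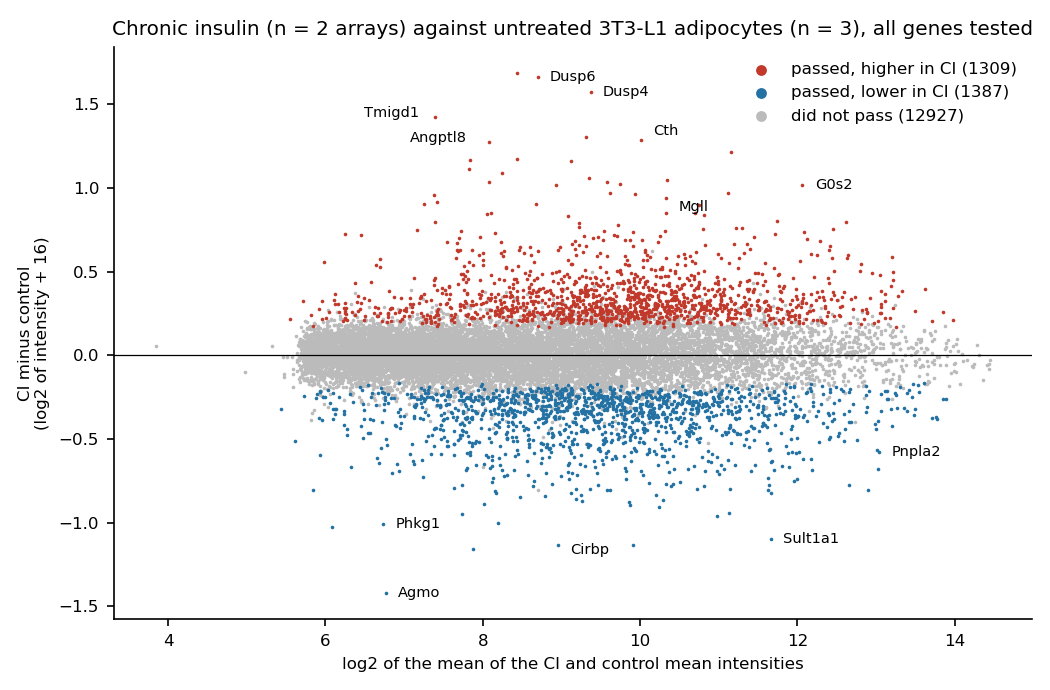
CI minus control on the log2 scale (y axis) against the log2 of the mean intensity of the 2 groups (x axis), 1 point a gene. The 1309 genes that passed and were higher in CI are red, the 1387 lower are blue, and Dusp6, Dusp4, Cth and Agmo lie among the points farthest from 0.

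The balance of higher and lower genes depended on the scale. The values were used as deposited, with array medians of 128.7 to 129.2 in CI cells and 125.8 to 129.5 in control cells. The 18 probe sets for spiked-in hybridization control RNA were all lower in CI, by a median of -0.23 on the log2 scale. Centring the arrays on those spikes moved the median of all genes from 0.01 to 0.23 and gave 2095 genes higher and 135 lower, in place of 1309 and 1387. The spikes were also low on 1 TNF and 1 DEX array. Changes below are therefore relative to the bulk of the genes, and each lower gene given below that did not pass on the spike scale has its value there beside it. Adjusted p-values of limma on the spike scale followed the size of the difference more than the spread of the single gene. Aldh6a1 and Pdk4, both at -0.29 there, had adjusted p of 0.132 and 0.135, against 6.49e-05 and 0.0257 on the deposited scale. A pass on the spike scale was thus close to a cut on the size of the difference. On that scale the matrix list had 3 lower genes, the preadipocyte, chemokine, acute-phase and macrophage lists had 2 each, and each of the other lists had 0 or 1. The ratio of 3' to 5' actin signal, a measure of RNA quality, was 1.82 and 1.43 on the CI arrays and 1.49 to 1.58 on the control arrays, so CI array 1 was the highest of these 5. Its part in the results was not tested.

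**Figure D2:**
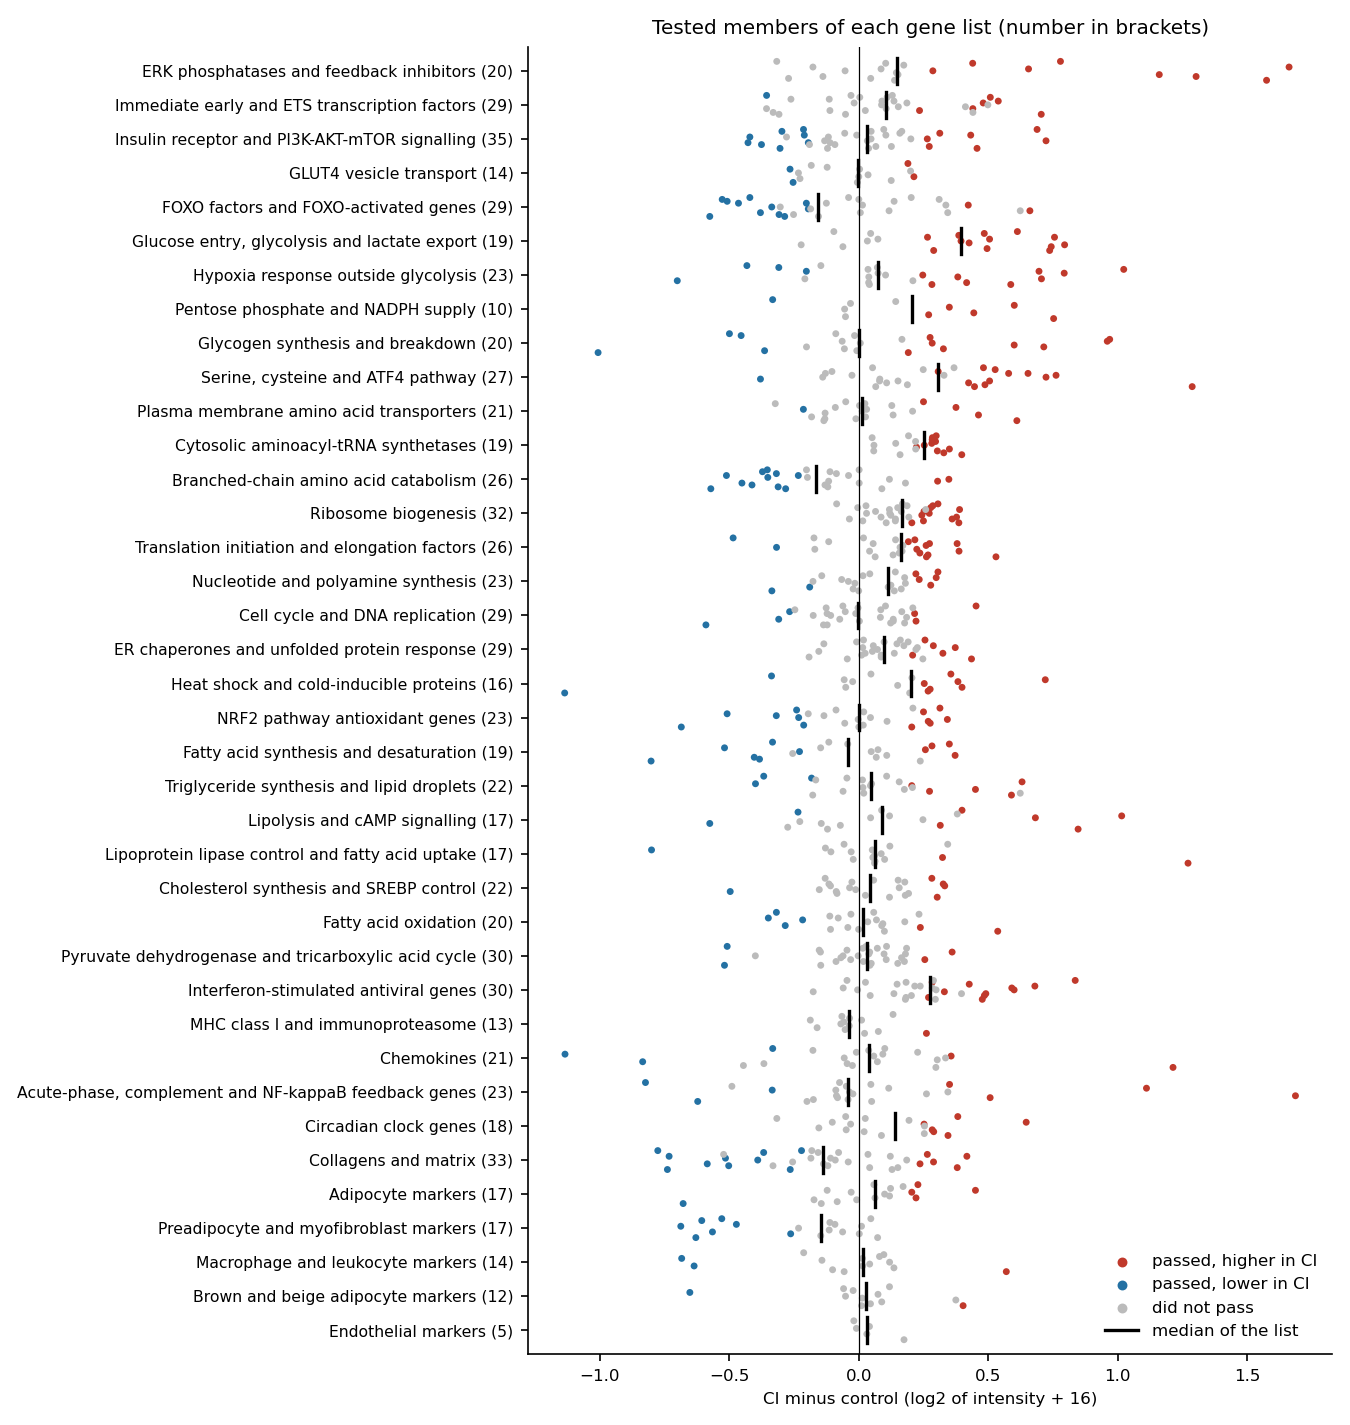
CI minus control (x axis, log2) for every tested member of the 38 gene lists, 1 point a gene, with the list median as a bar; red points passed as higher in CI, blue as lower, grey did not pass. The glycolysis list has the median farthest above 0, at 0.40, and the FOXO and branched-chain lists have the lowest medians, at -0.16 each.

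Genes that switch off ERK signalling included the largest single increases on the lists apart from Lcn2. Of 20 ERK phosphatases and feedback inhibitors tested, 8 were higher in CI and 0 lower, with a list median of 0.15 against 0.01 for all genes. Quantile normalization, the dim filter set at the median, or leaving out control array 3 gave 1 lower. With the mean of each gene's probe sets the list median was 0.10. Dusp6, a phosphatase that inactivates ERK, read 671 and 607 in CI cells, against 177, 202 and 194 in control cells, so that the groups were over 3-fold apart and did not overlap. The difference was 1.66 ± 0.174 (SE; adjusted p = 2.19e-05). Dusp4, a nuclear MAP kinase phosphatase, read 879.8 and 1121 in CI cells, against 309.6, 314 and 346 in control cells, a difference of 1.57 ± 0.105 (SE; adjusted p = 9.02e-07). Dusp1, which acts on several MAP kinases, read 683 and 863 in CI cells, against 371, 357 and 283 in control cells, a difference of 1.16 ± 0.158 (SE; adjusted p = 0.000179). Each of these phosphatases was higher on both CI arrays than on every control array.

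The inhibitors upstream of ERK moved the same way. Spry4, which restrains RAS activation, read 968 and 842 in CI cells, against 274, 444 and 371 in control cells (1.30 ± 0.242, SE; adjusted p = 0.00178), and all 4 of its probe sets were higher in CI. Errfi1, an inhibitor of the EGF receptor, rose by 0.78 (adjusted p = 0.000623) and Spred2, which blocks RAF activation, by 0.66 (adjusted p = 0.000668), although 3 dimmer Spred2 probe sets did not pass. The family did not move as 1 block, since Spry2 had a log2 difference of -0.32 and Dusp5 one of 0.09, neither passing. Of the 8 calls, 7 held without each array in turn.

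Early response genes moved less. Of 29 immediate early and ETS transcription factor genes tested, 6 were higher and 1 lower. Fos, a subunit of the AP-1 factor, read 305 and 322 in CI cells, against 194, 181 and 184 in control cells, a difference of 0.70 ± 0.0988 (SE; adjusted p = 0.000226). Klf10, a zinc finger early response factor, rose by 0.54 (adjusted p = 0.00052) and Etv5, an ETS factor induced by ERK, by 0.44 (adjusted p = 0.00397). The count fell to 3 without CI array 1 and to 3 without control array 2, and these 3 genes passed without each array.

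**Figure D3:**
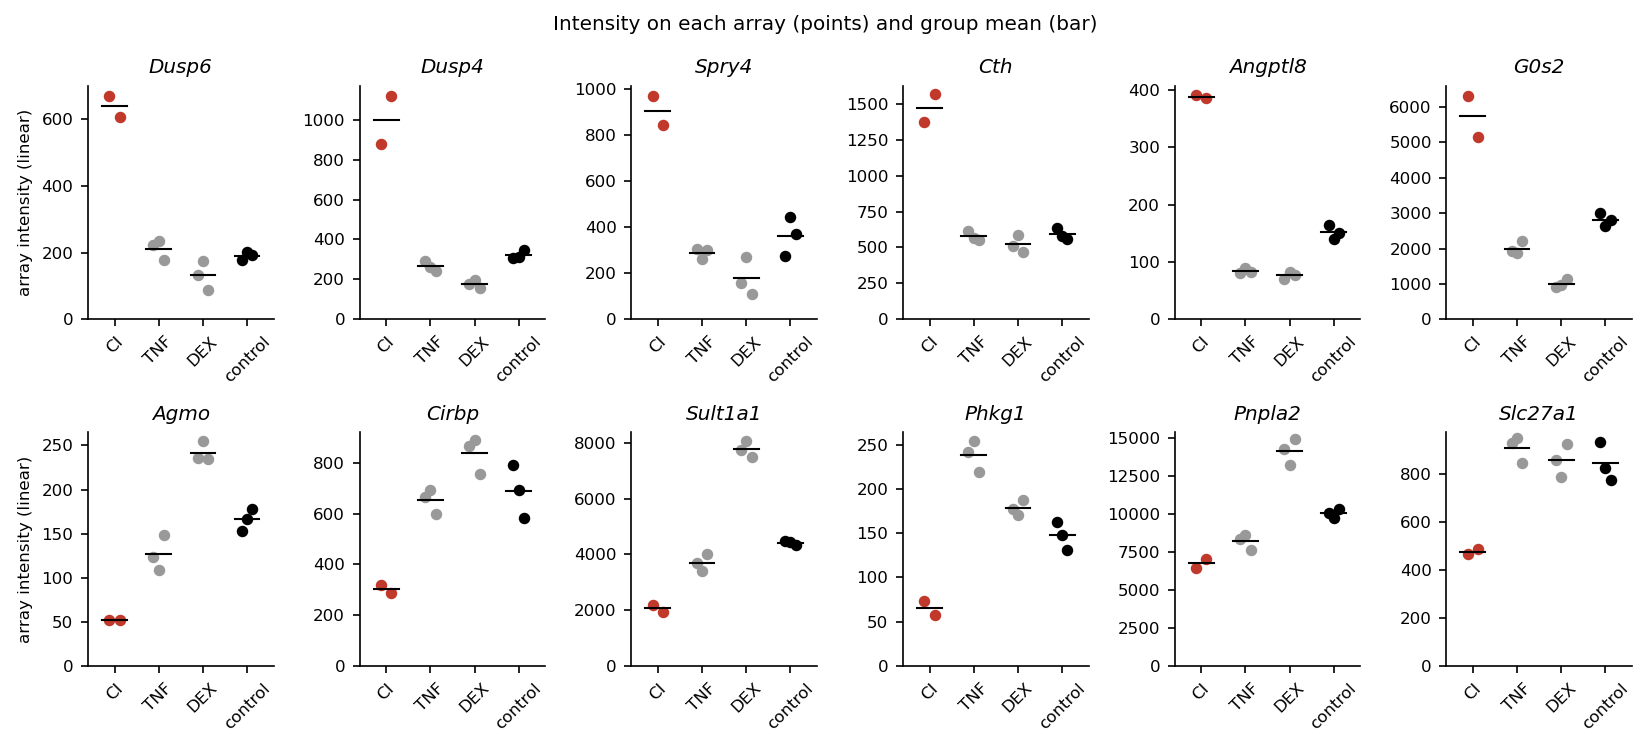
Intensity of 12 genes on each array (points, linear y axis starting at 0) with the group mean (bar), for CI (2 arrays), TNF (3), DEX (3) and control (3). Dusp6, Dusp4, Spry4, Cth, Angptl8 and G0s2 were higher on both CI arrays than on all others, and Agmo, Cirbp, Sult1a1, Phkg1, Pnpla2 and Slc27a1 lower.

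Insulin pathway genes moved in both directions. Of 35 tested genes of the receptor and PI3K-AKT-mTOR branch, 7 were higher and 8 lower, with a median of 0.03, and 5 were lower without CI array 2 or control array 1. Insr, the insulin receptor, read 645 and 565 in CI cells, against 849, 770.3 and 822 in control cells, a difference of -0.42 ± 0.0683 (SE; adjusted p = 0.000685). Igf1r, the IGF-1 receptor, read 452 and 449 in CI cells, against 575, 587 and 606 in control cells (-0.38 ± 0.0665, SE; adjusted p = 0.00128). Both receptors were lower on each CI array than on each control array, but 2 dimmer Insr probe sets did not pass, with log2 differences of 0.14 and 0.08, the mean over all Insr probe sets did not pass (-0.07, adjusted p = 0.395), and on the spike scale neither receptor passed (Insr -0.20, Igf1r -0.16).

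Pik3ca, the catalytic p110α subunit of PI3K, was lower by -0.30 (adjusted p = 0.00575), and so was Deptor, an inhibitor bound to mTOR, by -0.43 (adjusted p = 0.000455); on the spike scale their differences were -0.08 and -0.21, neither passing. The receptor substrates Irs1 and Irs2 had differences of -0.30 (adjusted p = 0.0109) and -0.19 (adjusted p = 0.0298). Irs1 did not pass without CI array 2 (adjusted p = 0.102), and the adjusted p of Irs2 rose to between 0.071 and 0.127 when either CI array, control array 1 or control array 3 was left out. On the spike scale Irs1 was at -0.08 and Irs2 at 0.03, neither passing. Srebf1, a transcription factor of fat synthesis that insulin induces in liver, was -0.33 (adjusted p = 0.00693) and did not pass without CI array 2 (adjusted p = 0.13) or on the spike scale (-0.11).

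Among the 7 higher genes of the list were Grb14, Sh2b2 and Grb2. Grb14, an adaptor that inhibits the receptor kinase, read 1226 and 1102 in CI cells, against 736, 714 and 696 in control cells, a difference of 0.69 ± 0.11 (SE; adjusted p = 0.00059). Sh2b2, an adaptor also called APS, rose by 0.43 (adjusted p = 0.00043) and Grb2, the adaptor that links receptors to RAS, by 0.46 (adjusted p = 0.000233). Grb2 had a second probe set at -0.14, and the mean of its probe sets did not pass (0.16, adjusted p = 0.0527). Slc2a4, the glucose transporter GLUT4, read 2292 and 2367 in CI cells, against 2722, 2380.2 and 2515 in control cells, overlapping ranges with a difference of -0.12 ± 0.0878 (SE; adjusted p = 0.405). Of 14 tested genes of GLUT4 vesicle transport 2 were higher and 2 lower, and none of these calls held without each array in turn.

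FOXO factors and genes they activate were lower more often than higher. Of 29 tested, 2 were higher and 11 lower, with a median of -0.16. With the mean of each gene's probe sets 4 were higher and 7 lower, with a median of -0.07, and a fit of CI and control arrays alone gave 5 higher. Without CI array 1 or control array 1 there were 6 lower, and without CI array 2 or control array 2 there were 7. Pik3ip1, which inhibits PI3K, read 165 and 155 in CI cells, against 259.7, 234 and 221 in control cells (-0.53 ± 0.104, SE; adjusted p = 0.00276), and Map1lc3b, the autophagosome protein LC3, read 4933 and 5037 in CI cells, against 7183, 6653 and 6821 in control cells (-0.46 ± 0.0632, SE; adjusted p = 0.000179). Foxo1 itself differed by -0.04 (adjusted p = 0.787). Pdk4, the kinase that shuts off pyruvate dehydrogenase, was at -0.51 (adjusted p = 0.0257), a call lost without either CI array, control array 1 or control array 2 (adjusted p of 0.0529 to 0.151) and on the spike scale (-0.29). On the spike scale the list had 7 genes higher and 0 lower. Its median there was 0.06, above 0 but still below the 0.23 of all genes, and Pik3ip1 and Map1lc3b did not pass (-0.31 and -0.24). The 2 that rose were Klf15, a transcription factor of adipocyte metabolism, at 0.66 (adjusted p = 0.000289) and Bcl6, a transcriptional repressor, at 0.42 (adjusted p = 0.00121). Pck1, the gluconeogenic and glyceroneogenic enzyme PEPCK, had a difference of 0.62 (adjusted p = 0.0538) and did not pass. It passed in a limma fit of CI and control arrays alone (adjusted p = 0.00731). On the spike scale Pck1 stood at 0.84 (adjusted p = 6.79e-07), a p-value that there mostly follows the size of the difference. It also passed with the replicate block (adjusted p = 0.0267), a pseudocount of 64 (adjusted p = 0.0366) and the mean of its probe sets (0.44, adjusted p = 0.043). Over all alternatives the difference ranged from 0.36 to 0.88, the latter without CI array 2.

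Most glycolytic genes were higher. Of 19 tested genes of glucose entry, glycolysis and lactate export, 13 were higher and 0 lower, with a median of 0.40. The lowest member was at -0.22, and 1 member passed as lower with the dim filter set at the median. The raised genes ran over most steps of the pathway, as the plot of glycolytic, glycogen and lipid genes shows. Slc2a1, the glucose transporter GLUT1, read 1080.3 and 951 in CI cells, against 732, 695 and 734 in control cells, a difference of 0.48 ± 0.074 (SE; adjusted p = 0.000427). Hk2, the hexokinase that traps glucose in insulin-sensitive tissue, read 2500.3 and 2174 in CI cells, against 1716, 1663 and 1818 in control cells (0.43 ± 0.076, SE; adjusted p = 0.00134). Both steps were higher on each CI array than on each control array.

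At the committed step, the phosphofructokinase genes Pfkp and Pfkl both rose. Pfkp read 1209.9 and 1209 in CI cells, against 754, 682 and 724 in control cells, a difference of 0.74 ± 0.0598 (SE; adjusted p = 4.94e-06), and Pfkl rose by 0.61 (adjusted p = 3.47e-05), while the muscle form Pfkm stayed at 0.07 without passing. Further down, Pgam1, phosphoglycerate mutase, rose by 0.51 (adjusted p = 6.84e-05) and Pkm, pyruvate kinase, read 7596 and 8406 in CI cells, against 4813, 4274 and 4728 in control cells (0.79 ± 0.075, SE; adjusted p = 1.18e-05). Ldha, which turns pyruvate into lactate, read 7356 and 6796 in CI cells, against 4024, 4128 and 4398 in control cells, a difference of 0.76 ± 0.0681 (SE; adjusted p = 8.74e-06). The remaining higher members were Pfkfb3, Aldoa, Tpi1, Pgk1, Hk1 and Ldhb, with log2 differences between 0.27 and 0.74. The lactate exporters did not pass, Slc16a1 at -0.10 and Slc16a3 at 0.05. Of the 13 calls 11 held without each array in turn, and 10 genes were higher in CI than in all 3 other groups.

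**Figure D4:**
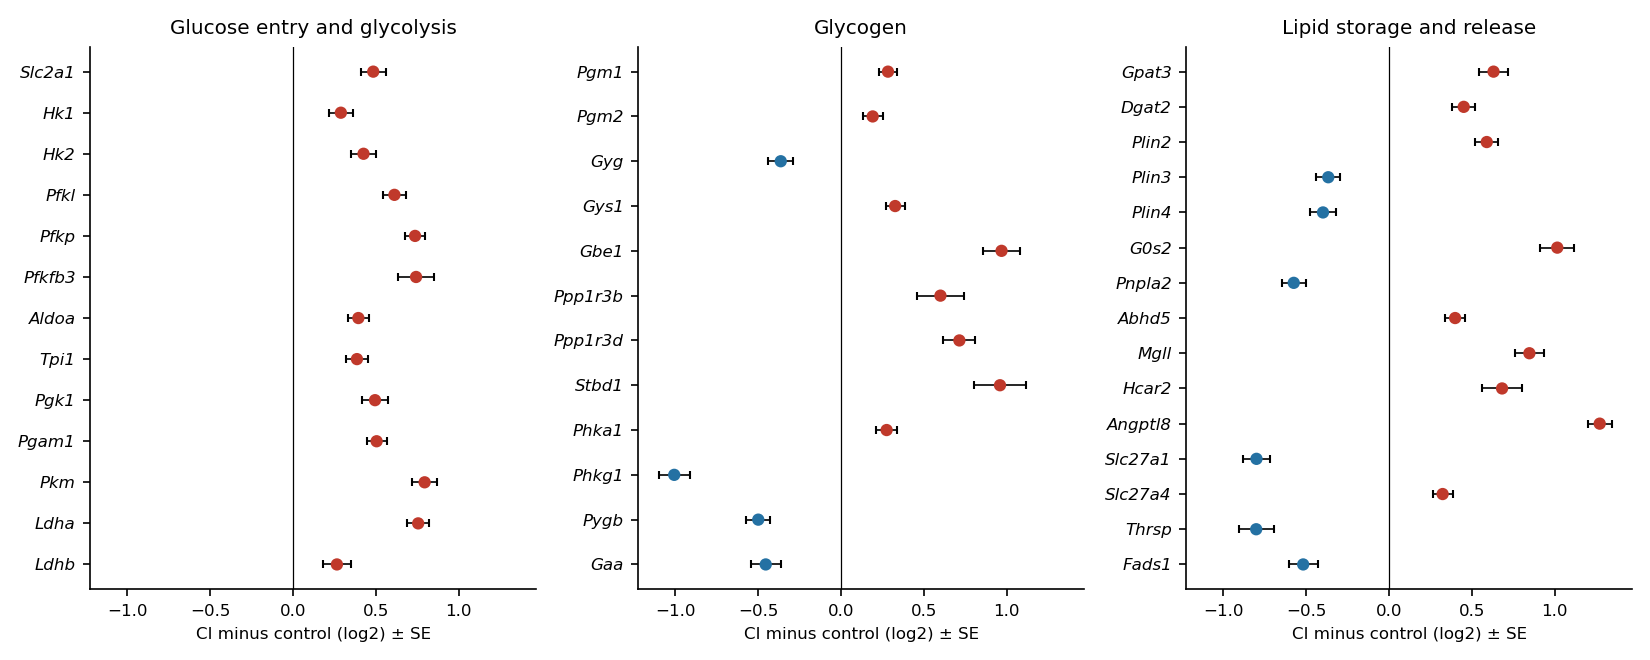
CI minus control (x axis, log2) with its standard error for the 13 passing glycolytic genes, the 12 passing glycogen genes and 15 genes of lipid storage and release named in the text; red points are higher in CI, blue points lower. Every glycolytic gene shown lies right of 0, while the glycogen and lipid genes lie on both sides.

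Branches off glycolysis moved too. In the pentose phosphate pathway and NADPH supply, 5 of 10 tested genes were higher and 1 lower. Rpe, the epimerase of the non-oxidative arm, read 2237 and 2260.2 in CI cells, against 1335, 1259 and 1393 in control cells, a difference of 0.75 ± 0.0688 (SE; adjusted p = 9.16e-06). Pgd, which makes NADPH, read 6252 and 5528 in CI cells, against 3684, 3847 and 4095 in control cells (0.60 ± 0.0826, SE; adjusted p = 0.000193), with all 4 of its probe sets higher, and Rpia, which supplies ribose phosphate, rose by 0.44 (adjusted p = 0.000446). The count fell to 3 without control array 2, and these 3 genes were the ones that passed without each array.

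Glycogen genes moved in both directions. Of 20 tested, 8 were higher and 4 lower. Gbe1, the branching enzyme, read 1063 and 1027 in CI cells, against 536, 448 and 605 in control cells, a difference of 0.97 ± 0.113 (SE; adjusted p = 5.41e-05). Gys1, glycogen synthase, rose by 0.33 (adjusted p = 0.00118), and Ppp1r3d, a subunit that brings protein phosphatase 1 to glycogen, by 0.71 (adjusted p = 0.000162). Stbd1, a glycogen-binding protein, read 162 and 293 in CI cells, against 108, 105 and 101 in control cells, a difference of 0.96 ± 0.154 (SE; adjusted p = 0.000625) that was much larger on CI array 2 than on CI array 1.

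On the breakdown side, Phkg1, a catalytic subunit of phosphorylase kinase, read 73.6 and 57.4 in CI cells, against 163, 148 and 131 in control cells, a difference of -1.01 ± 0.0939 (SE; adjusted p = 1.12e-05) seen with both of its probe sets. Its CI values were close to the cut for dim probe sets, 51.7, where the pseudocount understates a fold. Pygb, a glycogen phosphorylase, read 3342 and 3061 in CI cells, against 4399.7, 4369 and 4824 in control cells (-0.50 ± 0.0738, SE; adjusted p = 0.000331). Phka1, a regulatory subunit of phosphorylase kinase, was 0.28 (adjusted p = 0.00673), opposite to Phkg1. Gyg, glycogenin, the primer of synthesis, was lower at -0.36 (adjusted p = 0.00388). Centred on the spikes, 1 of the 4 stayed lower, Phkg1, while Pygb (-0.28) and Gyg (-0.14) did not pass.

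Genes of hypoxia response outside glycolysis gave 9 higher and 4 lower of 23, but 5 higher with the mean of each gene's probe sets, 3 higher without CI array 1 and 0 lower without CI array 2. P4ha1, a collagen prolyl hydroxylase, rose by 0.59 (adjusted p = 1.75e-05), Ero1a, an oxidase of the endoplasmic reticulum, by 0.70 (adjusted p = 5.27e-05), and Egln3, an oxygen-sensing hydroxylase, by 0.71 (adjusted p = 0.00121). These 3 held without each array. Adm, adrenomedullin, went the other way with -0.70 (adjusted p = 0.00749), and did not pass without CI array 2 (adjusted p = 0.058), and Ddit4, an mTOR inhibitor induced by stress, had 1.02 (adjusted p = 0.02), a call lost without CI array 1 (adjusted p = 0.269).

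Amino acid genes of the ATF4 programme, which cells raise when amino acids or protein folding fall short and when mTOR is active, were more often higher than lower. Of 27 tested genes of serine, cysteine and ATF4 pathways, 12 were higher and 1 lower, with a median of 0.31. The median was 0.12 without CI array 2 and 0.53 without CI array 1. Cth, cystathionine gamma-lyase, which makes cysteine, read 1370.4 and 1569 in CI cells, against 638, 578 and 561 in control cells, a difference of 1.29 ± 0.0905 (SE; adjusted p = 1.31e-06). The CI arrays were more than 2-fold above every control array. Psph and Psat1, enzymes of serine synthesis, rose by 0.58 (adjusted p = 0.000108) and 0.51 (adjusted p = 0.000163), and Aldh18a1, the first enzyme of proline synthesis, rose by 0.48 (adjusted p = 0.000988). Without CI array 2 the list had 6 higher, and 4 of the calls held without each array in turn.

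All 19 tested cytosolic aminoacyl-tRNA synthetases, which load amino acids onto tRNAs, lay above 0. Of these, 11 passed as higher and 0 as lower, and the median was 0.25. Wars, the tryptophan enzyme, read 2176 and 2218 in CI cells, against 1642, 1626 and 1724 in control cells, a difference of 0.40 ± 0.0711 (SE; adjusted p = 0.00135), and Gars, the glycine enzyme, rose by 0.30 (adjusted p = 0.00198). The differences were small, from 0.05 to 0.40, and without CI array 2 only 4 passed. Among 21 amino acid transporters 4 were higher (2 without CI array 2) and 1 lower, led by Slc16a10, an aromatic amino acid transporter, at 0.61 (adjusted p = 0.000226), and Slc38a2, a neutral amino acid transporter, at 0.38 (adjusted p = 0.00227).

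Ribosome and translation genes that passed were nearly all higher, with small differences. Of 32 ribosome biogenesis genes 12 were higher and 0 lower, median 0.17, and 4 were higher without CI array 1. Fbl, the fibrillarin that methylates ribosomal RNA, read 1289 and 1312 in CI cells, against 976, 958 and 1034 in control cells (0.39 ± 0.0702, SE; adjusted p = 0.00143), and Bysl, needed for the small subunit, rose by 0.39 (adjusted p = 0.0008). Of 26 translation factors 11 were higher and 2 lower, with 5 higher without CI array 1 and 6 without control array 1 or 2. Eif4e, the cap-binding factor, read 3165 and 3125 in CI cells, against 2429.9, 2341 and 2469.7 in control cells (0.38 ± 0.0601, SE; adjusted p = 0.000552). Eef1e1, part of the synthetase complex, rose by 0.53 (adjusted p = 4.49e-05). Genes of nucleotide and polyamine synthesis had 5 higher and 2 lower of 23, with 1 higher without CI array 1. Cell cycle genes gave 3 higher and 3 lower of 29, shares near those over all genes (8.38% and 8.88%), or 0 higher without control array 1 and 1 lower without CI array 2. Ccnd1, cyclin D1, was lower at -0.59 (adjusted p = 0.000166), though on the spike scale it did not pass (-0.37, adjusted p = 0.0616).

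Breakdown of branched-chain amino acids, which adipocytes use as carbon for fat, had more genes lower than higher. Of 26 tested genes 2 were higher and 11 lower, with a median of -0.16. Bckdha, the E1α subunit of the branched-chain ketoacid dehydrogenase, read 1514 and 1487 in CI cells, against 2239, 2126 and 2350.2 in control cells, a difference of -0.57 ± 0.0679 (SE; adjusted p = 6.39e-05). Aldh6a1, of the valine pathway, read 5316 and 4885 in CI cells, against 7130.1, 7209 and 7464 in control cells (-0.51 ± 0.0609, SE; adjusted p = 6.49e-05). Bckdk, the kinase that inhibits the complex, was lower as well, by -0.45 (adjusted p = 0.000257). The E2 subunit Dbt went the other way at 0.35 (adjusted p = 0.00121). Of the lower calls, 7 held without each array, and without CI array 2 there were 7. On the spike scale 0 passed as lower, and Bckdha, Aldh6a1 and Bckdk were at -0.35, -0.29 and -0.23 without passing. The list median there was 0.06, above 0 but still below the 0.23 of all genes.

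Fat storage and release gave mixed signs with large single changes. Of 17 tested genes of lipolysis and cAMP signalling 5 were higher and 2 lower. Pnpla2, the triglyceride lipase ATGL, read 6485 and 7037 in CI cells, against 10108, 9749 and 10366 in control cells, a difference of -0.57 ± 0.0716 (SE; adjusted p = 9.17e-05). G0s2, its inhibitor, read 6322 and 5141 in CI cells, against 3005, 2630.5 and 2814 in control cells, a difference of 1.02 ± 0.103 (SE; adjusted p = 1.73e-05). Lipase and inhibitor thus moved in opposite directions on both CI arrays, and on the spike scale Pnpla2 was at -0.35 (adjusted p = 0.0728).

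Abhd5, Mgll and Hcar2 were among the 5 higher genes of the list. Abhd5, the activator of ATGL also called CGI-58, was at 0.40 (adjusted p = 0.000459), but the mean over its 3 probe sets did not pass (0.15, adjusted p = 0.164). Mgll, the monoacylglycerol lipase that completes triglyceride breakdown, read 1677 and 1628 in CI cells, against 889, 836 and 1020.4 in control cells (0.85 ± 0.0863, SE; adjusted p = 1.73e-05). Hcar2, the niacin receptor that restrains lipolysis, read 816 and 616 in CI cells, against 444, 473 and 395 in control cells (0.68 ± 0.12, SE; adjusted p = 0.00124). Lipe, the hormone-sensitive lipase, had a difference of -0.14 (adjusted p = 0.395), which was no call.

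On the storage side, Gpat3, which starts glycerolipid synthesis, read 6407 and 6790.5 in CI cells, against 4236, 4368 and 4162 in control cells, a difference of 0.63 ± 0.0852 (SE; adjusted p = 0.000166). Dgat2, which makes triglyceride, rose by 0.45 (adjusted p = 0.000533) and the droplet coat protein Plin2 by 0.59 (adjusted p = 6.28e-05). Dgat1, which makes triglyceride too, was at -0.18 (adjusted p = 0.0456), a call kept in 6 of 16 alternatives and at 0.04 on the spike scale. The coat proteins Plin3 and Plin4 were lower at -0.37 (adjusted p = 0.00264) and -0.40 (adjusted p = 0.00275), and neither passed on the spike scale (-0.15 and -0.18). In all, 5 of 22 triglyceride and droplet genes were higher and 3 lower, and 3 were higher without CI array 1.

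Angptl8, a secreted protein that controls lipoprotein lipase and is induced by insulin in mouse liver and fat, read 391 and 386 in CI cells, against 164, 141 and 151 in control cells, a difference of 1.27 ± 0.0726 (SE; adjusted p = 2.62e-07). It was 1 of the steadiest changes, at 2.56-fold, and its promoter holds TTGCATCA, as printed above. Slc27a1, the fatty acid transport protein FATP1, read 465 and 488 in CI cells, against 932, 825 and 776 in control cells (-0.80 ± 0.0843, SE; adjusted p = 2.33e-05), with both probe sets lower. Its relative Slc27a4, FATP4, rose by 0.32 (adjusted p = 0.00186). The list of lipoprotein lipase control and fatty acid uptake had 2 higher and 1 lower of 17 tested, and its other genes did not pass.

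Fatty acid synthesis was not raised as a group, with 4 higher and 6 lower of 19. Thrsp, the lipogenic protein Spot 14, read 6354 and 4849 in CI cells, against 9941, 9154 and 9987 in control cells (-0.80 ± 0.105, SE; adjusted p = 0.000138). Fads1, a desaturase, was lower at -0.52 (adjusted p = 0.000853) and did not pass on the spike scale (-0.30). Nr1h3, the oxysterol receptor LXRα, rose by 0.37 (adjusted p = 0.00128). Without CI array 2 or control array 1 there were 3 lower, and without control array 2 there were 2 higher. Cholesterol synthesis had 4 higher and 1 lower of 22, with 0 higher without CI array 1 and 1 without control array 2. Fatty acid oxidation had 2 higher and 4 lower of 20 (2 lower without CI array 1 or control array 1), with Cpt1a, which admits fatty acids to mitochondria, at 0.54 (adjusted p = 0.000481). In the tricarboxylic acid cycle and pyruvate dehydrogenase list 2 were higher and 2 lower of 30, but 6 were higher with a pseudocount of 64, and leaving out 1 array gave 1 to 4 higher and 1 to 3 lower. Idh2, the mitochondrial NADP isocitrate dehydrogenase, was at -0.52 (adjusted p = 0.000273), or -0.30 without passing on the spike scale.

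The heat shock and cold-inducible list had 7 higher and 2 lower of 16. Cirbp, the cold-inducible RNA-binding protein, read 318 and 287 in CI cells, against 790.1, 691 and 581 in control cells, a difference of -1.14 ± 0.108 (SE; adjusted p = 1.21e-05), and it also passed on the spike scale. The higher members included the chaperone Hsph1, reading 1105 and 929 in CI cells, against 622, 574 and 631 in control cells (0.72 ± 0.0857, SE; adjusted p = 6.39e-05) and the chaperones Hspa4 and Hspd1, which rose by 0.40 (adjusted p = 0.000494) and 0.36 (adjusted p = 0.00141). The other lower member was a chaperone as well, Hspa1b of the HSP70 family, at -0.34 (adjusted p = 0.00485), a call lost without CI array 2 (adjusted p = 0.057) and on the spike scale (-0.12). The endoplasmic reticulum chaperone list had 6 higher and 0 lower of 29, with 4 higher without CI array 1. Antioxidant genes of the NRF2 list gave 6 higher and 6 lower of 23, with 1 higher and 2 lower without CI array 2 and 3 higher without CI array 1. Gpx1, glutathione peroxidase 1, read 2616 and 2470.2 in CI cells, against 4107, 3903 and 4288 in control cells (-0.68 ± 0.0657, SE; adjusted p = 1.27e-05) and Mt1, a metallothionein, was at -0.51 (adjusted p = 0.000623), which did not pass on the spike scale (-0.29).

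Immune genes moved in a subset. Of 30 interferon-stimulated antiviral genes 11 were higher and 0 lower, with a median of 0.28, with 6 higher without CI array 2 7 without CI array 1 or control array 3, and 17 in a fit of CI and control arrays alone. Zbp1, a nucleic acid sensor, read 2376 and 2237 in CI cells, against 1174, 1350.4 and 1337 in control cells (0.84 ± 0.143, SE; adjusted p = 0.000995). Rsad2, the antiviral enzyme viperin, read 5883 and 6473 in CI cells, against 3865, 4001 and 3677 in control cells (0.68 ± 0.0961, SE; adjusted p = 0.000239), and Ifih1, the RNA sensor MDA5, rose by 0.59 (adjusted p = 0.00241). Genes of MHC class I and the immunoproteasome, another interferon target, gave 1 higher of 13, near the share over all genes (8.38%), and 0 when any of the 5 arrays was left out.

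Single secreted factors changed more. Lcn2, lipocalin 2, read 474 and 590.1 in CI cells, against 113, 140.2 and 225 in control cells, a difference of 1.69 ± 0.324 (SE; adjusted p = 0.00231), although control array 3 was nearly 2-fold above control array 1. Cxcl10, an interferon-induced chemokine, read 2872 and 3536 in CI cells, against 1388, 1581 and 1159 in control cells (1.21 ± 0.146, SE; adjusted p = 7.11e-05), and Il6, the cytokine interleukin 6, read 296 and 336 in CI cells, against 149.9, 160.2 and 108 in control cells (1.11 ± 0.2, SE; adjusted p = 0.00142). Ccl9, a macrophage chemokine, read 638 and 541 in CI cells, against 1588, 1352 and 1043 in control cells (-1.13 ± 0.146, SE; adjusted p = 0.000112). The lists did not follow these genes, with 2 higher and 3 lower of 21 chemokines and 4 higher and 3 lower of 23 acute-phase and complement genes. Without CI array 2 there was 1 chemokine lower, and without CI array 1, CI array 2 or control array 2 there were 2 acute-phase genes higher. TNF cells had far more of Lcn2 and Ccl9, with means of 4471 and 8832, so CI cells were well below TNF cells for both.

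Matrix genes were lower more often than higher. Of 33 collagens and matrix genes 5 were higher (2 without CI array 2) and 10 lower, median -0.14. Timp2, a metalloproteinase inhibitor, read 2959 and 3165 in CI cells, against 5614, 5216 and 4575 in control cells (-0.74 ± 0.0843, SE; adjusted p = 4.73e-05), Lox, which cross-links collagen, read 2349 and 2396 in CI cells, against 4372, 4055 and 3479 in control cells (-0.73 ± 0.106, SE; adjusted p = 0.00028), and Dcn, the proteoglycan decorin, read 4338 and 5165 in CI cells, against 9426, 7994 and 7092 in control cells (-0.78 ± 0.119, SE; adjusted p = 0.000449). All 3 also passed on the spike scale, where the list kept 3 lower genes and its median was 0.08, against 0.23 for all genes.

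Markers of other cells were read beside these changes. Of 17 preadipocyte and myofibroblast markers 0 were higher and 7 lower, median -0.15. The median was -0.23 with the dim filter set at the median, -0.11 with no filter on dim genes and -0.12 with a pseudocount of 64. Acta2, smooth muscle actin, read 2695 and 2459 in CI cells, against 3732, 3981 and 4273 in control cells (-0.63 ± 0.0693, SE; adjusted p = 3.54e-05), and the preadipocyte markers Dlk1 and S100a4 were at -0.56 (adjusted p = 0.00211) and -0.47 (adjusted p = 0.001). Acta2 passed on the spike scale, while Dlk1 (-0.34) and S100a4 (-0.25) did not. There 2 members stayed lower, and the list median was 0.07, against 0.23 for all genes. Over the alternatives Acta2 ranged from -0.69 to -0.23. The summed intensity of the list was 31141 and 31188 in CI cells, against 36473 to 39889 in control cells, without overlap, and 4 were lower without CI array 2. Fewer cells of a type and less RNA per cell cannot be told apart in these samples, and the part of these cells in the matrix result was not tested.

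Adipocyte markers gave 4 higher and 1 lower of 17, and their summed intensity was 149892 and 152410 in CI cells, on either side of the 150298 to 152014 of control cells. The sum includes Adipoq and Fabp4, both close to the highest intensity on any array, where a difference can be compressed. Pparg, the master regulator of adipocytes, read 7450.4 and 6563 in CI cells, against 7239, 7017 and 6842 in control cells, ranges that overlapped. Without CI array 1 there was 1 marker higher, and without CI array 2, control array 1 or control array 2, or in a fit of CI and control arrays alone, there were 2. Brown and beige adipocyte markers gave 1 higher and 1 lower of 12. Car3, carbonic anhydrase 3, was lower, reading 6257 and 6574 in CI cells, against 10572, 10318 and 9927 in control cells (-0.68 ± 0.0708, SE; adjusted p = 2.18e-05). Lep, leptin, was dim, with a difference of 0.22 (adjusted p = 0.0233), and was no call without CI array 1 or control array 3 (adjusted p of 0.237 and 0.0881).

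Macrophage markers had 1 higher and 2 lower of 14, or 4 lower without CI array 2, and their summed intensity was 5177 and 5555 in CI cells, against 5842 to 6099 in control cells. Cd14, the lipopolysaccharide co-receptor, and Lyz2, lysozyme, were lower at -0.68 (adjusted p = 0.000277) and -0.64 (adjusted p = 0.00028), Mpeg1, perforin 2, was higher at 0.57 (adjusted p = 0.000254), and the defining genes Ptprc and Itgam were too dim to be tested. Of 5 endothelial markers tested 0 passed in limma, and 5 more, among them Pecam1, were too dim.

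Clock genes gave 6 higher and 0 lower of 18, but 2 with the mean of each gene's probe sets, 3 in a fit of CI and control arrays alone, 1 without CI array 1 and 3 without control array 1 or 2. The 1 that held without each array was Nfil3, a repressor of the circadian network, which read 476 and 475 in CI cells, against 338, 269 and 291 in control cells (0.65 ± 0.143, SE; adjusted p = 0.00601).

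Compared with all 3 other groups, CI cells were higher at 845 genes (5.41% of those tested) and lower at 816 (5.22%), where each gene had to pass against TNF, DEX and control cells alike. On the spike scale the counts were 1005 and 70, without CI array 1 they were 400 and 558, and without CI array 2 they were 682 and 521. Dusp6 averaged 639 in CI cells, 212 in TNF cells, 133 in DEX cells and 191 in control cells, and Cth averaged 1469.7 in CI cells, 579 in TNF cells, 523 in DEX cells and 592 in control cells. For Angptl8 the means were 388 in CI cells, 84.6 in TNF cells, 76.6 in DEX cells and 152 in control cells. The differences against TNF and DEX cells were 1.53 and 2.18 for Dusp6, 1.32 and 1.47 for Cth, and 2.01 and 2.13 for Angptl8. All 3 genes were higher in CI cells than in each of the other groups.

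Further genes of this kind were less tied to insulin's textbook targets. Tmigd1, a membrane protein of the immunoglobulin family, read 261 and 244 in CI cells, against 78.1, 78.8 and 95.8 in control cells (1.42 ± 0.136, SE; adjusted p = 1.24e-05). Sema3g, a secreted semaphorin, read 345 and 300.3 in CI cells, against 133, 134 and 138 in control cells (1.16 ± 0.064, SE; adjusted p = 2.62e-07), and Pla2g2e, a secreted phospholipase A2, read 466 and 504 in CI cells, against 219.6, 194 and 207 in control cells (1.17 ± 0.117, SE; adjusted p = 1.64e-05). Alcam, a cell adhesion molecule, rose by 1.04 (adjusted p = 1.89e-06) with all 5 probe sets passing and higher, and Gramd1b, a cholesterol transfer protein, by 1.05 (adjusted p = 1.53e-06), although a second Gramd1b probe set of like brightness was at 0.21 and did not pass.

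Among genes lower in CI than in all 3 other groups, Agmo, which cleaves ether lipids, read 51.9 and 52.0 in CI cells, against 153, 167 and 178 in control cells, a difference of -1.42 ± 0.0936 (SE; adjusted p = 9.02e-07) but its CI values were close to the cut for dim probe sets, 51.7, where the pseudocount understates a fold. Sult1a1, a sulfotransferase, read 2196 and 1931 in CI cells, against 4492, 4432 and 4329 in control cells (-1.10 ± 0.0751, SE; adjusted p = 1.1e-06), and Mc2r, the ACTH receptor, read 885 and 785 in CI cells, against 1599, 1602 and 1532 in control cells (-0.91 ± 0.0703, SE; adjusted p = 3.13e-06). On each of these genes the CI arrays lay below every control array, and all 3 also passed on the spike scale. The plot of differences from control shows that TNF and DEX cells had these genes near or above the control level, except Agmo and Sult1a1 in TNF cells, at -0.36 and -0.26. The 3 differences from control share the control arrays. The tests of CI against each of the 3 other groups share the same 2 CI arrays, so they are not independent of each other.

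**Figure D5:**
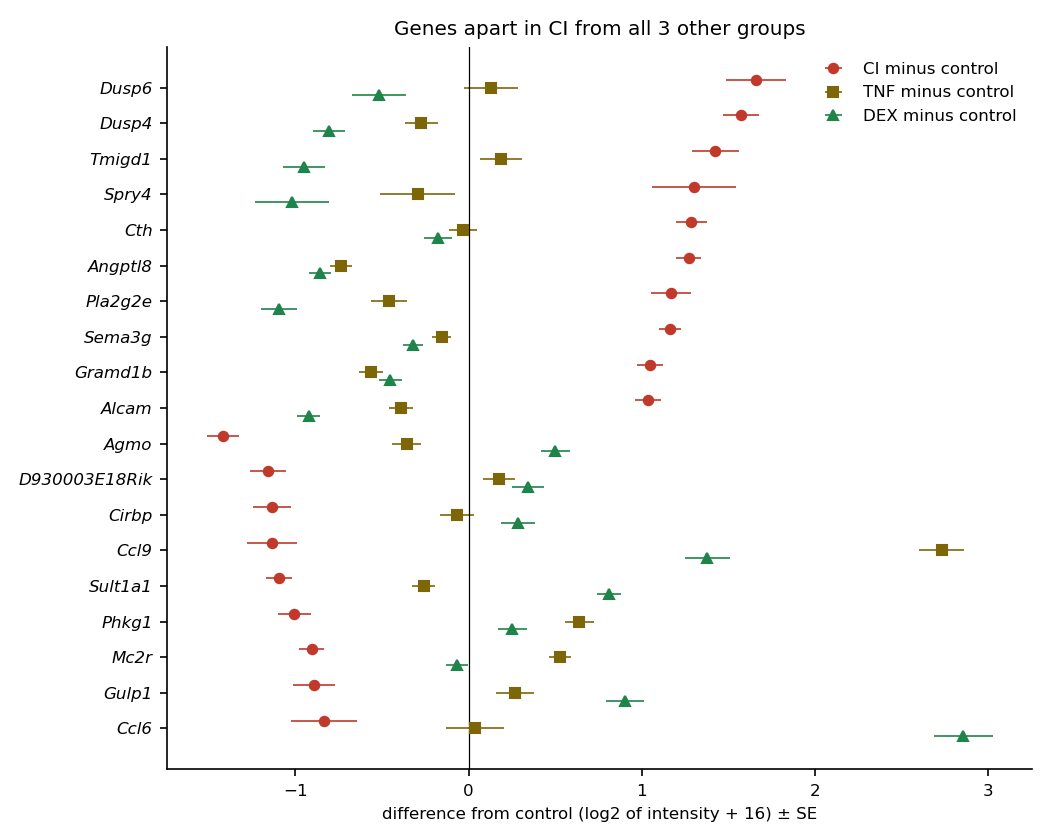
Difference from control (x axis, log2, with standard error) in CI (red circles), TNF (brown squares) and DEX (green triangles) cells, for 10 genes higher and 9 genes lower in CI, among those that differed most from all 3 other groups. The CI points lie beyond the TNF and DEX points of the same gene in every row, from -1.42 for Agmo to 1.66 for Dusp6.

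Outside these lists, the other large changes included higher Camp, a cathelicidin precursor (1.09 (adjusted p = 8.85e-05)), S100a8, a calcium-binding protein of neutrophils (1.04 (adjusted p = 0.00175)), and BC023105 (1.02 (adjusted p = 1.81e-06)). Rps25, a ribosomal protein gene, was at 1.06 (adjusted p = 1.73e-05); its processed copies in the genome could share the probe set, so this value is uncertain. Lower were D930003E18Rik (-1.16 (adjusted p = 7.7e-06)), Smim5, a small membrane protein (190.2 ± 9.39 in CI cells and 397 ± 7.64 in control cells, SD), Nudt18, a nucleotide hydrolase (-0.96 (adjusted p = 7.7e-06)), Rassf6, a RAS association domain protein (-0.95 (adjusted p = 3.05e-05)), and Gulp1, an engulfment adaptor (-0.89 (adjusted p = 0.000183)). Further lower genes were Nat8f3 (-1.03, adjusted p = 0.000625), which read 42.3 and 33.8 in CI cells, below the cut for dim probe sets, Greb1 (-0.89, adjusted p = 4.34e-05), and Maf, a transcription factor (-0.87, adjusted p = 0.000249). Amy1, Mettl7b, Rasl11b, Strip2 and Akr1c14 differed by -0.87 to -0.84, with adjusted p-values of 8.63e-06 to 0.000161, and Amy1 and Akr1c14 belong to families of close copies that could share their probe sets, so these values are uncertain. For the chemokine gene Ccl6 the difference was -0.83 (adjusted p = 0.00684), with an adjusted p of 0.0776 once CI array 2 was left out.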

How the data were processed

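Total RNA (3 µg a sample) was labelled with biotin and hybridised to Affymetrix arrays, per the labels' protocols. The authors deposited linear intensity values for 45101 probe sets on 11 arrays whose method of summary and scaling the sources used here do not state. Gene symbols came from GEO's platform annotation, which gave 1 symbol for 34945 probe sets, several for 932 and none for 9160, beside 64 control probe sets; 34741 of the named ones matched a RefSeq gene ID and 0 symbols changed. Each gene was read with its brightest probe set, and genes with a mean below the 25th percentile of all probe sets (51.7) were left out. Values were log2-transformed after adding a pseudocount of 16, which understates changes of dim genes. Group means of all 11 arrays were fitted with limma 3.58.1 in R 4.3.3 (two-sided, Benjamini-Hochberg over 15623 genes, threshold 0.05), with 7 residual degrees of freedom. The script was tested on simulated data with known changes.

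The 38 gene lists and the members were chosen with earlier results of these data known, so list counts and medians are descriptions, with no test of a list. The rule for naming genes took the 20 largest passing changes in each direction with both CI arrays beyond all control arrays, up to 5 passing members of each list in each direction by adjusted p, the 10 genes in each direction farthest from all 3 other groups, and Insr, Irs1, Irs2, Igf1r, Slc2a4, Slc2a1, Adipoq, Pparg, Srebf1, Txnip, Foxo1, Pck1, Hk2 and Lep. It took 252 genes; the text gives the leading ones of each list, the others enter the counts only, and 1 gene is not reported here. Further genes (the rest of the passing glycolysis and glycogen members, Lipe, Fabp4, Spry2, Dusp5, Pfkm, the lactate exporters and those chosen by promoter letters) were named after their values were seen. Promoters span 250 bases before to 50 after the start.

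Alternatives were other scalings, pseudocounts, filters and probe set rules, fits of CI and control arrays alone, a replicate block, and each array left out.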

Additional observations from a re-analysis of the deposited data

Results flagged for a closer look

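Probe sets without a gene symbol lay outside the comparison, and 5223 of them were bright enough to test in a limma fit of all probe sets with 1 symbol or none, where 115 were higher and 136 lower in CI (4.81% together). The 3 that stood highest above the control arrays are given because no comparison of the report uses them. Probe set 1453238_s_at read 1626 and 2227 in CI cells, against 968, 827 and 849 in control cells (log2 difference 1.10, adjusted p = 0.00134). Probe set 1456798_at read 197 and 206 in CI cells, against 106, 82.1 and 89.1 in control cells (1.01, adjusted p = 2.29e-05). Probe set 1428909_at read 3233 and 4011 in CI cells, against 2131, 1807 and 1549 in control cells (0.98, adjusted p = 0.000544). On each, both CI arrays were above all 3 control arrays, which adds little, since the arrays of the groups did not overlap at 46% of all genes tested.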

How the results depend on the processing

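Counts of passing genes (2696, with 1309 higher and 1387 lower) stayed within 1.5 times their value, and so did the counts against all 3 other groups where these were computed, under median centring, quantile normalization, pseudocounts of 1 and 64, other filters on dim genes, the mean of a gene's probe sets, an intensity trend with robust moderation, the replicate block, and a fit of CI and control arrays alone. Centring on the hybridization spikes gave 2095 higher and 135 lower, and 1005 higher and 70 lower against all 3 groups. Testing every probe set on its own (27826 tested) gave 4165 passing, 2094 higher and 2071 lower, and 1388 and 1256 against all 3 groups. Leaving out 1 array at a time gave 1433 to 2474 passing, 558 to 1196 higher and 856 to 1278 lower, and 400 to 792 higher and 521 to 776 lower against all 3 groups; the cause was not tested. Among named genes the sign turned on the spike scale for Adipoq (0.14), Bnip3 (0.018), Dgat1 (0.038), Etfa (0.0036), Foxo1 (0.18), Irs2 (0.026), Pparg (0.21), Prps2 (0.031), Slc1a3 (0.0065) and Slc2a4 (0.098), and 61 of the 252 genes that the naming rule took no longer passed there. With the mean of all probe sets it turned for Creb1 (0.066), Foxo1 (0.0027), Lss (-0.059) and Slc1a3 (0.0068). Acta2, Dcn, Slc16a10 and Eif4e passed in all 16 alternatives, but their differences there shrank to as little as -0.23, -0.38, 0.25 and 0.20. Leaving out arrays, Foxo1 ranged from -0.13 to 0.053 and Pparg from -0.10 to 0.083. The replicate block gave 2784 passing genes, 2453 of them shared with the fit without it. Same-numbered CI and control arrays did not deviate together (correlations of -0.058 for number 1 and -0.061 for number 2). With 2 CI arrays each deviation from the CI mean mirrors the other, so these values cannot decide whether the numbers mark a pairing. With the block 12 of the 252 genes no longer passed and 2 more did, among them Txnip, an inhibitor of glucose uptake (-0.31, adjusted p = 0.0407, against -0.25 and 0.165 without it). Intensities near the top of the scale or near background limit what a difference can show.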
